A study of Homo sapiens with 6 samples.

Results

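LIPG, ANGPTL4, VLDLR, FABP5, LPIN1, DGAT1, DGAT2, PLIN2, HILPDA and PNPLA2 act where a cell takes in fatty acids, stores them as triglyceride in lipid droplets and releases them again. Their transcripts were read in HN12, an established line from a human squamous carcinoma of the head and neck. They were taken by symbol, 10 of the 16274 named genes with counts, and were picked with results of this same comparison known, so their values are a description. No p-value is given for them, and where edgeR's fit over all genes called some of them, the calls are stated beside the share of all genes called and support nothing. Cells of both groups were grown in DMEM with serum and antibiotics and then held for 24 h with the solvent DMSO (Control, 3 libraries) or with CPI-613 (3 libraries). CPI-613, or devimistat, is a lipoate analogue directed at the mitochondrial pyruvate and 2-oxoglutarate dehydrogenase complexes. Its dose is not given in the sources used here, and HN12 is a single line. No label ties the replicates to separate cultures, so p-values here cover only how these libraries vary, and that variation may be technical.

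Triglyceride-rich lipoproteins reach a cell in 2 ways: secreted lipases free fatty acids from them at the cell surface, or lipoprotein receptors take up the whole particle. Inside the cell, binding proteins carry the fatty acids, and acyltransferases and a phosphatase join them to a glycerol backbone. The product, triglyceride, collects in droplets coated by perilipins, from which lipases release the fatty acids again for oxidation, membranes or signals. Tumour cells are known to build up such droplets when oxygen is short.

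The libraries held 11529373 to 15485053 estimated counts. All 10 squamous epithelial markers were detected, with a summed 9841 to 12338 CPM (counts scaled to a common library total) in Control and 8544.5 to 17759.7 CPM with CPI-613. Of the squamous list ITGB4 was called higher, from 2415 ± 319 to 5686 ± 1336 CPM (SD, n = 3). KRT5, a basal keratin, had 2232 ± 295 and 962 ± 552 CPM, with groups that did not overlap, and was called lower only with the trend on GC content and transcript length taken out. The adipocyte markers summed to 2.41 to 3.06 CPM in Control and 2.15 to 2.63 CPM with CPI-613, with ADIPOQ at 0 to 2 counts. The endothelial markers summed to 1.30 to 2.90 and 0.214 to 0.846 CPM, and the fibroblast markers, mostly COL1A1, to 35.6 to 41.6 and 31.0 to 41.4 CPM. Leukocyte and macrophage markers summed to 63.6 to 94.7 and 41.7 to 83.3 CPM, with CD68 leading, CD14 called lower and PTPRC at 0 to 2 counts. The part of these transcripts in the results was not tested, and in bulk RNA fewer cells of a kind and less RNA per cell cannot be told apart.

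With CPI-613, LIPG, ANGPTL4, VLDLR, LPIN1 and DGAT2 had more transcripts in every library than in any Control library, and FABP5 and HILPDA had fewer. DGAT1, PLIN2 and PNPLA2 overlapped between the groups. Of all 12655 genes tested, 11.9% lay wholly above Control in this way and 9.18% wholly below, 21.0% in all. edgeR's quasi-likelihood test called LIPG, ANGPTL4 and LPIN1 higher and FABP5 lower, 3 and 1 of the 10 genes, where it called 1.94% of all genes tested higher and 1.23% lower, together 3.17%. Libraries also differed along the GC content of transcripts, so values with that trend, and the one on length, taken out of each library are given beside the others as "trend-removed". On that scale 5 of the 10 genes were called higher and 2 lower (VLDLR, DGAT2 and HILPDA being added), where 6.81% and 4.98% of all genes were, together 11.8%. The genes were picked on this comparison, so nothing is read from these counts. Their median log2 fold change was 0.91, against 0.02 over all genes tested.

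The calls depended on which libraries were kept. With Control replicate 1 or Control replicate 3 left out, edgeR called 0 genes in all, although 1064 and 1117 had an unadjusted p below 0.05. Leaving out CPI-613 replicate 2 left 7 calls, with LIPG, ANGPTL4, LPIN1 and FABP5 not among them, and leaving out Control replicate 2 ended the calls of ANGPTL4 and LPIN1. Scaling by total count alone also ended the call of LPIN1. Higher genes made up 61.1% of the 401 calls and 47.0% of those under that scaling, in which the median gene had a log2 fold change of -0.17.

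**Figure D1:**
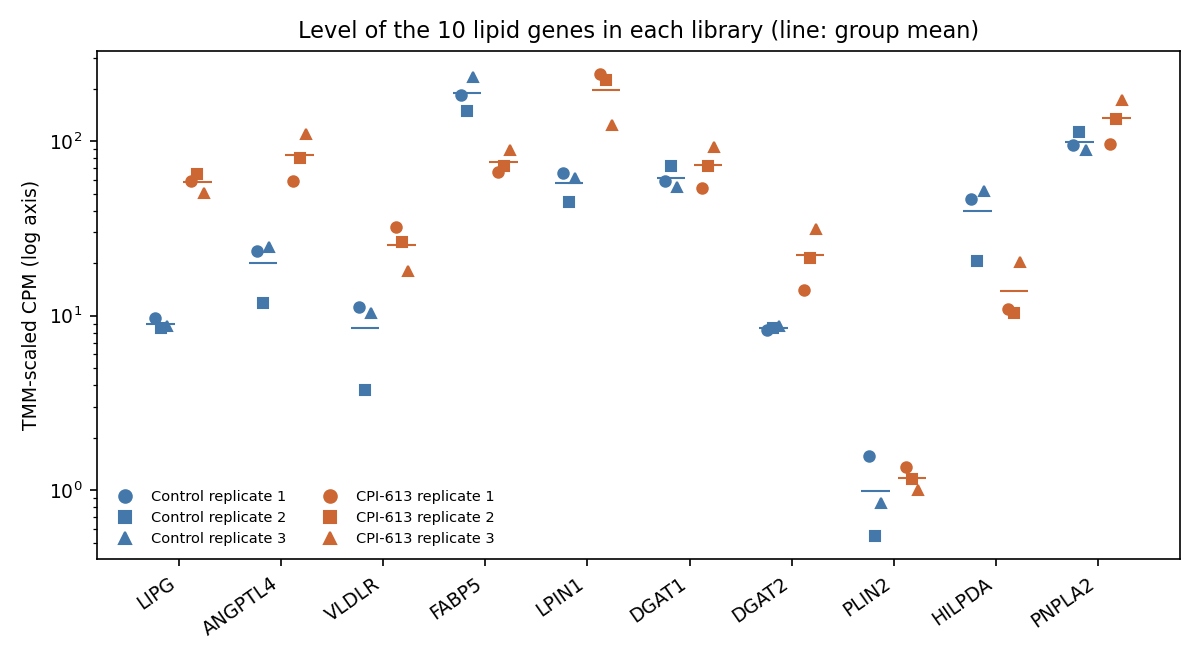
TMM-scaled CPM (log axis) of the 10 genes in each of the 6 libraries, Control in blue and CPI-613 in orange, with the replicate shown by the symbol and the group mean by a line. The groups stand apart for LIPG, ANGPTL4, VLDLR, FABP5, LPIN1, DGAT2 and, narrowly, HILPDA.

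LIPG (gene ID 9388, chromosome 18 at 49561479 to 49599185 on GRCh38) encodes endothelial lipase, a secreted phospholipase that releases fatty acids from lipoproteins, mainly HDL. Its transcripts measured 9.64, 8.54 and 8.79 CPM in Control replicates 1 to 3 and 59.0, 65.3 and 50.3 CPM in CPI-613 replicates 1 to 3. The 3 Control libraries lay close together and all 3 CPI-613 libraries lay far above them, a 6.47-fold difference (log2 fold change 2.69, SE 0.22). A smaller absolute log2 fold change was found in 99.1% of all genes tested. Its counts were split over 5 RefSeq transcripts. The largest by mean share had 38.9% ± 14.3 of the gene's counts in Control and 44.8% ± 2.38 with CPI-613 (SD, n = 3). A different transcript led in Control replicates 1 and 3, with a mean of 27.4% ± 20.5 in Control and 13.6% ± 4.86 with CPI-613. Despite its name, the gene was read here in cells in which the endothelial markers PECAM1, VWF, CDH5, KDR and TEK gave at most 14 counts per library.

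ANGPTL4 (gene ID 51129, chromosome 19 at 8364155 to 8374370) encodes a secreted protein that inactivates lipoprotein lipase and also inhibits endothelial lipase. It is a well-known target of PPAR receptors and of hypoxia. Its transcripts measured 23.6, 11.8 and 24.9 CPM in Control and 59.4, 80.0 and 109.6 CPM with CPI-613 (replicates 1 to 3 of each). The lowest CPI-613 library lay above the highest Control library, and Control replicate 2 stood well below the other Control libraries. The log2 fold change was 2.05 (SE 0.37), a 4.13-fold difference, and 1.46 when trend-removed and without Control replicate 2. The gene overlaps RAB11B-AS1 on the opposite strand, as VLDLR does VLDLR-AS1. FABP5, PNPLA2, DGAT1, DGAT2 and LPIN1 overlap opposite-strand genes too. Without strand information such reads cannot be told apart. One RefSeq transcript carried 93.1% ± 4.79 of the counts in Control and 91.5% ± 2.96 with CPI-613 (SD, n = 3).

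VLDLR (gene ID 7436, chromosome 9 at 2621787 to 2660056) encodes the very low density lipoprotein receptor, which takes up triglyceride-rich lipoproteins. It measured 11.3, 3.73 and 10.4 CPM in Control and 32.3, 26.5 and 18 CPM with CPI-613. The groups did not overlap, but both were spread widely, with Control replicate 2 and CPI-613 replicate 3 lowest in their groups. The log2 fold change was 1.59 (SE 0.46), and 1.97 (SE 0.29) when trend-removed. The full-length transcript and the form that lacks the exon for the O-linked sugar domain took 55.5% ± 6.12 and 34.8% ± 12.1 of the counts in Control and 57.7% ± 2.45 and 40.2% ± 6.08 with CPI-613 (SD, n = 3), so the mix of these forms overlapped between the groups. Per length it was low, at 1.03 ± 0.522 FPKM (reads per kilobase of transcript, scaled to depth) in Control and 2.74 ± 1.04 FPKM with CPI-613 (SD, n = 3).

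The stretches just upstream of the annotated starts of ANGPTL4 and VLDLR, both with more transcripts under CPI-613, and of PNPLA2, whose groups overlapped, are shown to let their sequence be compared. They come from RefSeq for GRCh38.p14, 5′ to 3′ on the plus strand, at chr19:8363905-8364150, chr9:2621537-2621786 and chr11:818664-818901. Capitals mark matches on either strand to the hypoxia-inducible factor core (ACGTG or GCGTG) or to the sterol regulatory element TCACCCCAC.
ANGPTL4: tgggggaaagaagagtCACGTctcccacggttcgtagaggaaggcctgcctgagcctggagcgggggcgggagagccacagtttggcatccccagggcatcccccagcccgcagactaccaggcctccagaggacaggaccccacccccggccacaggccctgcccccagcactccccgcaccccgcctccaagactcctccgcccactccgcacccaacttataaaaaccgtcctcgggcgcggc
VLDLR: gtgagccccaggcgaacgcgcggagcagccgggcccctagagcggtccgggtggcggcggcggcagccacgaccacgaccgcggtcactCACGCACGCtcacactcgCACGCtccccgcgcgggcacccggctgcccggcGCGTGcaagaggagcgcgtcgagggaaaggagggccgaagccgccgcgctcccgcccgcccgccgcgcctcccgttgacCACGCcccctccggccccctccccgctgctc
PNPLA2: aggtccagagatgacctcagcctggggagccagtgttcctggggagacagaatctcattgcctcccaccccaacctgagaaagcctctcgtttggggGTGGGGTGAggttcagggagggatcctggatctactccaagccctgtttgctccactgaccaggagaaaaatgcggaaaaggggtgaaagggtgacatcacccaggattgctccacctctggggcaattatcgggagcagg
In the 250 bases upstream of the start, ANGPTL4 held 1 match to the hypoxia core and VLDLR 5, some overlapping, and PNPLA2 none. The core is short and stood in 43.2% of all 35116 promoters of that length in the table. PNPLA2 held 1 sterol element, found in 0.362% of them. None of these 3 stretches held TGACGTCA, the cyclic AMP response element, or TGATGNAA, the element shared by C/EBP and ATF4, which 1.65% and 3.14% of the promoters held. The letters CACGTG, an E-box that contains the hypoxia core and that 6.34% of all promoters hold, stood in none of the 3 either. The table held entries for LIPG, PLIN2 and LPIN1 too, 6 of the 10 genes in all. LIPG had 3 matches to the hypoxia core, PLIN2 had 4, of which 2 overlap in an E-box, and LPIN1 had 1 in one of its 3 windows. The LIPG window and that LPIN1 window lie inside the coordinates given for these genes, not upstream of the whole gene. A match is a description of letters, and no match says only that these letters are not in the window.

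FABP5 (gene ID 2171, chromosome 8 at 81280536 to 81284775) encodes the epidermal fatty acid binding protein, which carries fatty acids within the cell and to nuclear receptors. It measured 185, 149 and 234 CPM in Control and 67.0, 72.4 and 88.8 CPM with CPI-613. All 3 CPI-613 libraries lay well below the lowest Control library, a 2.49-fold lower level (log2 fold change -1.32, SE 0.23). It stayed the most abundant of the 10 genes per length in both groups, at 465 ± 114 FPKM in Control and 160 ± 8.91 FPKM with CPI-613 (SD, n = 3). Of the FPKM of FABP3, FABP4, FABP5 and FABP6 together it made up 98.2% ± 0.896 in Control and 98.6% ± 0.215 with CPI-613. FABP4, the adipocyte form, had 6, 2 and 4 counts in Control and 0, 1 and 1 with CPI-613. GENCODE 29 lists 14 pseudogenes named after FABP5, and reads they share with it could be counted to either, so its level carries that uncertainty.

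LPIN1 (gene ID 23175, chromosome 2 at 11677544 to 11827409) encodes lipin-1, the phosphatidate phosphatase that makes diacylglycerol and also acts with PPAR coactivators in the nucleus. It measured 65.9, 45.0 and 61.4 CPM in Control and 243.6, 223 and 124 CPM with CPI-613. CPI-613 replicate 3 stood well below the other CPI-613 libraries, yet above every Control library, and the log2 fold change was 1.78 (SE 0.30). Its paralogs differed less: LPIN2 had 24.0 ± 2.04 and 27.3 ± 5.97 CPM and LPIN3 51.9 ± 10.4 and 43.9 ± 7.42 CPM, in Control and CPI-613, and neither was called. As a share of the summed FPKM of the 3 lipins, LPIN1 took 38.9%, 37.4% and 42.8% in Control and 76.9%, 73.6% and 60.1% with CPI-613. The lipin mix thus held mostly LPIN1 in all CPI-613 libraries and in no Control library. The LPIN1 counts were split over 20 RefSeq transcripts, of which the largest took 25.5% ± 4.02 in Control and 19.5% ± 2.69 with CPI-613 (SD, n = 3).

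DGAT1 (gene ID 8694, chromosome 8 at 144314584 to 144326852) and DGAT2 (gene ID 84649, chromosome 11 at 75768778 to 75801534) encode the 2 unrelated enzymes that add the last fatty acid to diacylglycerol. DGAT1 is known mainly for fatty acids that arrive from outside or from lipolysis and DGAT2 for newly made ones. DGAT1 measured 59.0, 72.1 and 54.7 CPM in Control and 53.8, 71.7 and 93.0 CPM with CPI-613, groups that overlapped over most of their range (log2 fold change 0.23, SE 0.25). DGAT2 measured 8.23, 8.54 and 8.79 CPM in Control and 14, 21.4 and 31.3 CPM with CPI-613. Its Control libraries were nearly equal, while the CPI-613 libraries were spread widely and all lay above them (log2 fold change 1.38, SE 0.33). That separation holds for the summed counts of the gene. The main DGAT2 transcript had 85.2, 103 and 115 estimated counts in Control and 85.9, 217 and 387 with CPI-613, groups that overlapped. Another transcript had 1.69, 6.54 and 0 in Control and 110, 61.3 and 0 with CPI-613. The FPKM ratio of DGAT1 to DGAT2 was 7.43, 8.58 and 6.42 in Control and 3.84, 3.37 and 3.11 with CPI-613. DGAT1 remained the more abundant of the pair, with every CPI-613 ratio below every Control ratio. DGAT1 is listed with 2 copies of one transcript that carry identical counts in each library and were summed. Each copy held 25.4% ± 0.821 of its counts in Control, and whether reads were divided between the copies or counted in both is not stated, so the printed CPM may be too high. The gene also overlaps HSF1 on the opposite strand, so without strand information their reads cannot be told apart there.

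**Figure D2:**
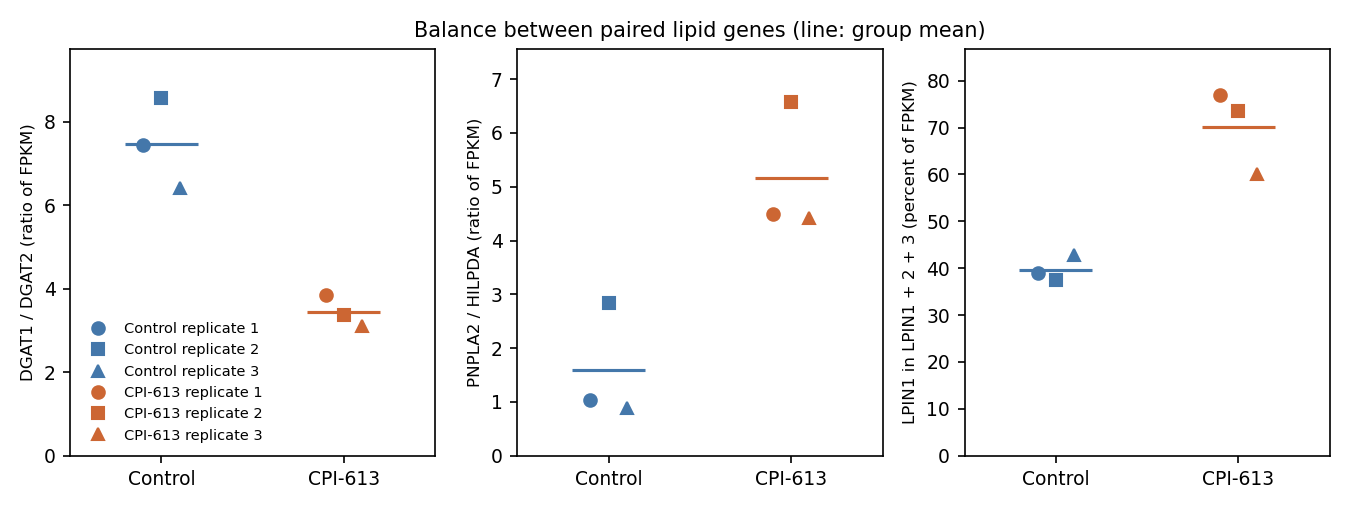
For each library, the FPKM ratio of DGAT1 to DGAT2, the FPKM ratio of PNPLA2 to HILPDA, and LPIN1 as a percentage of the FPKM of the 3 lipins; lines are group means and all axes start at 0. The DGAT ratio was lower and the other values were higher in every CPI-613 library than in any Control library.

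PLIN2 (gene ID 123, chromosome 9 at 19108388 to 19127492) encodes perilipin-2, the droplet coat protein found in most cell types and often used as a marker of stored lipid. It was hardly detected: 20, 7 and 11 counts in Control and 19, 15 and 13 with CPI-613, or 0.544 to 1.57 CPM over the 6 libraries. The groups overlapped (log2 fold change 0.25, SE 0.44). With an SE of that size HILPDA, at a log2 fold change of -1.52, was not called by edgeR. A difference in PLIN2 well beyond its error could therefore be missed. PLIN3, a perilipin that moves between cytosol and droplets, was the main family member, with 94.6% to 97.9% of the FPKM of the 5 perilipins per library, where PLIN2 had 0.587% to 2.30%. PLIN3 itself measured 104 ± 6.24 and 118 ± 51.4 CPM, and PLIN4 2.61 ± 0.549 and 1.56 ± 0.239 CPM, in Control and CPI-613, and neither was called. PLIN5, a perilipin of oxidative tissues, measured 2.15 ± 0.688 and 1.62 ± 0.410 CPM and was not called. PLIN1 of adipocytes had 1 to 5 counts in a library.

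HILPDA (gene ID 29923, chromosome 7 at 128455878 to 128458418) encodes a small droplet protein, induced by hypoxia, that inhibits the lipase PNPLA2. It measured 46.8, 20.6 and 51.6 CPM in Control and 11, 10.3 and 20.2 CPM with CPI-613. Control replicate 2 and CPI-613 replicate 3 almost met, and the others were far apart, for a 2.87-fold lower level (log2 fold change -1.52, SE 0.44). Leaving out Control replicate 2 with the trend removed gave -2.06. HILPDA and ANGPTL4, both known as hypoxia-induced, therefore differed from Control in opposite directions in all 3 CPI-613 libraries. G0S2, the other small inhibitor of PNPLA2, had no counts in Control and 3, 0 and 1 with CPI-613.

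PNPLA2 (gene ID 57104, chromosome 11 at 818914 to 825573) encodes adipose triglyceride lipase, which takes the first fatty acid off stored triglyceride. It measured 94.9, 113 and 89.2 CPM in Control and 97.1, 135 and 174 CPM with CPI-613. CPI-613 replicate 1 lay below Control replicate 2, so the groups overlapped (log2 fold change 0.45, SE 0.25). When trend-removed, the libraries drew together to 102 to 105 CPM in Control and 122 to 127 CPM with CPI-613, which did not overlap (log2 fold change 0.27, SE 0.10). Groups failed to overlap in 31.8% of all genes on that scale. The FPKM ratio of PNPLA2 to its inhibitor HILPDA was 1.04, 2.83 and 0.890 in Control and 4.49, 6.58 and 4.42 with CPI-613. Every CPI-613 library thus held more lipase transcript per inhibitor transcript than any Control library. ABHD5, the coactivator of PNPLA2, measured 8.34 ± 0.784 and 16.4 ± 2.21 CPM (SD, n = 3) and was not called (log2 fold change 0.98, SE 0.24; adjusted p by edgeR 0.0931). Its log2 fold change was 1.64 when trend-removed, again not called. MGLL, which cleaves the last fatty acid off, measured 22.4 ± 5.33 and 34.9 ± 11.2 CPM and was not called. LIPE, hormone-sensitive lipase, was not among the genes with counts and was not analysed.

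**Figure D3:**
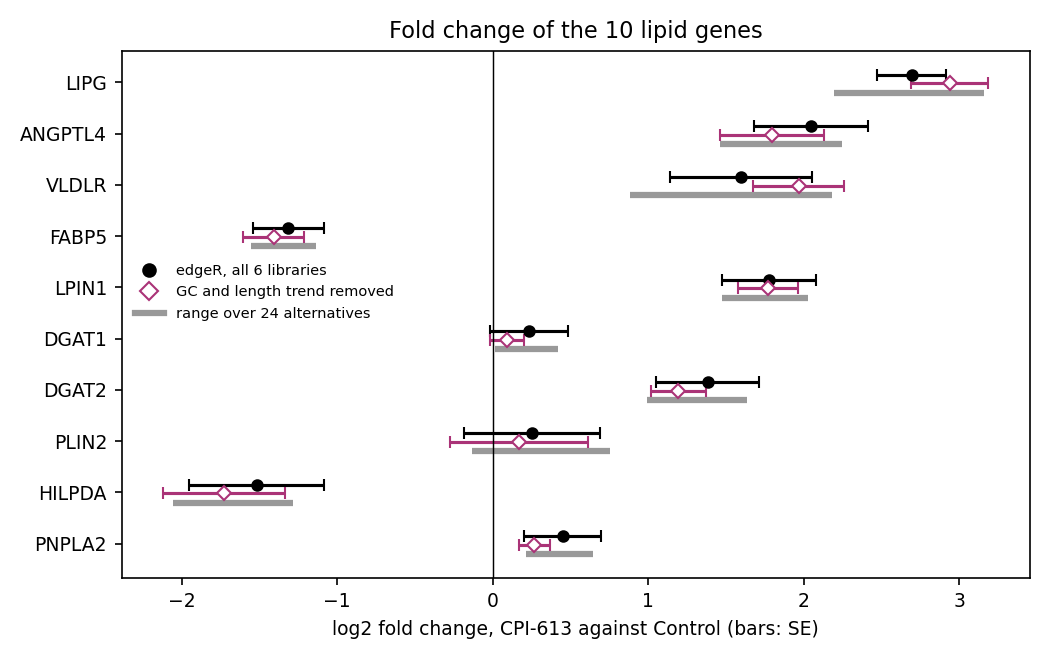
Log2 fold change of CPI-613 against Control for the 10 genes from edgeR on all 6 libraries (black, bars are SE), with the GC and length trend removed (open diamonds, bars are SE), and the range over the 24 alternatives (grey). The estimate kept its sign over the range for 9 genes, and PLIN2 crosses 0.

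Set in order of level per length, the Control libraries ran from FABP5 through PNPLA2 (48.5 ± 4.66 FPKM), HILPDA (38.3 ± 16.9), DGAT1 (31.6 ± 3.50), ANGPTL4 (13.3 ± 5.11), LPIN1 (12.4 ± 2.84), DGAT2 (4.23 ± 0.142) and LIPG (1.82 ± 0.232) to VLDLR and PLIN2 (0.653 ± 0.362; mean ± SD, n = 3). Neighbours whose libraries overlapped were PNPLA2 and HILPDA, HILPDA and DGAT1, ANGPTL4 and LPIN1, and VLDLR and PLIN2. With CPI-613 the order was FABP5, PNPLA2 (56.8 ± 9.99 FPKM), ANGPTL4 (46.6 ± 8.93), LPIN1 (37.9 ± 15.4), DGAT1 (32.3 ± 4.90), LIPG (12.0 ± 2.28), HILPDA (11.4 ± 3.25), DGAT2 (9.57 ± 2.42), VLDLR and PLIN2 (0.673 ± 0.166). HILPDA moved from place 3 to place 7, ANGPTL4 from 5 to 3 and LPIN1 from 6 to 4. Overlaps in this group joined PNPLA2 to ANGPTL4, ANGPTL4 to LPIN1, LPIN1 to DGAT1, LIPG to HILPDA, and HILPDA to DGAT2.

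The libraries of 1 group did not vary alike over the 10 genes. Control replicate 2 was the lowest Control library for 7 of them, as for 44.9% of all genes tested. It lay below the mean of the other 2 by 1.54 for VLDLR, 1.26 for HILPDA and 1.04 for ANGPTL4 on the log2 scale, and above it by 0.34 for DGAT1 and 0.30 for PNPLA2. Over all genes tested, split into 4 equal groups by GC content, its median log2 deviation was -0.49 in the group of lowest GC content and 0.30 in the group of highest. The transcripts of VLDLR and LIPG have a GC content of 42.7% and 44.3%, those of DGAT1, ANGPTL4 and PNPLA2 of 63.2% to 64.9%. With the trend removed the deviation of PNPLA2 was -0.01 and that of DGAT1 0.14, while those of HILPDA, ANGPTL4 and VLDLR were -1.47, -1.37 and -1.02. CPI-613 replicate 3 changed place as well: for LIPG it was the lowest CPI-613 library at 50.3 CPM and the highest at 81.7 CPM when trend-removed.

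The other genes of these pathways were read from lists named by textbook role, with the 10 genes left out. These lists too were chosen with earlier results of these data known, so their counts and p-values are no independent support. Of 103 tested, 4 rose, 2 fell and 97 were not called by edgeR, where 1.94% of all genes tested rose and 1.23% fell. Their median log2 fold change was 0.10, against 0.02 over all genes. DESeq2 called 9 higher and 6 lower, and limma-voom 4 and 2. Of all 12655 genes tested, DESeq2 called 492 higher and 400 lower, more than edgeR did, and limma-voom 247 and 166. Leaving out Control replicate 1, Control replicate 3 or CPI-613 replicate 2 ended all 6 calls.

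Among 22 tested genes of lipoprotein and fatty acid uptake 2 rose and 1 fell, with a median log2 fold change of -0.10. The balance turned with the method: DESeq2 called 2 higher and 4 lower and edgeR 3 and 6 when trend-removed, while limma-voom called 2 and 1. When trend-removed, edgeR called 6.81% of all genes tested higher and 4.98% lower. In 2 of these genes every CPI-613 library lay above every Control library and in 7 below, against 11.9% and 9.18% of all genes tested. MYLIP, a ubiquitin ligase that marks VLDLR and other lipoprotein receptors for breakdown, fell from 16.4 ± 0.531 to 4.46 ± 0.397 CPM (SD, n = 3; log2 fold change -1.88, SE 0.23; adjusted p by edgeR 0.0111, and between 3.01e-11 and 0.0945 in 22 alternatives). Every CPI-613 library lay below every Control library. LRP8, a receptor closely related to VLDLR, measured 71.2 ± 5.63 and 98.9 ± 21.4 CPM and was not called. CD36, the fatty acid receptor, had 2, 3 and 7 counts in Control and 0, 2 and 1 with CPI-613 and was not tested.

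In the list of droplet coat and assembly genes 1 of 18 tested genes rose and 1 fell, with a median log2 fold change of -0.18. Over all genes tested, 1.94% rose and 1.23% fell. TMT1A, earlier METTL7A, a methyltransferase-like protein found on the endoplasmic reticulum and droplets, fell from 81, 49 and 53 counts in Control to 5, 2 and 5 with CPI-613 (log2 fold change -3.94, SE 0.43; adjusted p by edgeR 0.00758, and between 1.26e-08 and 0.0713 in 22 alternatives). All 3 CPI-613 libraries were far below the Control libraries. HSD17B7 rose from 18.4 ± 1.18 to 45.2 ± 4.4 CPM (SD, n = 3; log2 fold change 1.30, SE 0.20; adjusted p by edgeR 0.0213, and between 8.98e-08 and 0.181 in 22 alternatives). It is known mainly as an enzyme of cholesterol synthesis and not as a coat protein, and its call was also lost without Control replicate 2.

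Among 9 tested genes of extracellular lipases and their regulators edgeR called 0, with 0 at an unadjusted p under 0.05 and 0 by DESeq2 or limma-voom. Lipoprotein lipase itself was in the list but not among the genes with counts, so it was not analysed. LIPC, hepatic lipase, had 0 to 2 counts in a library and GPIHBP1, the anchor of lipoprotein lipase, 0 to 1. LMF2, a lipase maturation factor, measured 95.3 ± 17.4 and 99.96 ± 18.1 CPM, and FURIN, a protease that cleaves ANGPTL4 and lipases, 77.4 ± 11 and 101.2 ± 38.4 CPM in Control and CPI-613.

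Among 19 tested intracellular lipases and cofactors edgeR called 0, DESeq2 2 higher and limma-voom 0, and unadjusted p-values from edgeR below 0.05 were found for 2 higher genes and 0 lower ones. LIPA, the lysosomal acid lipase, measured 112 ± 19.5 and 133 ± 21.8 CPM and PNPLA6 97.2 ± 13.3 and 136 ± 41.0 CPM. Among 15 tested genes of triglyceride and steryl ester synthesis edgeR called 0, DESeq2 1 higher and limma-voom 0, again with 2 higher genes and 0 lower ones at an unadjusted p from edgeR below 0.05. AGPAT3, an acyltransferase, measured 139.9 ± 6.55 and 162 ± 29.8 CPM, and GPAT4, which makes the first step from glycerol phosphate, 113 ± 19.6 and 133 ± 23.6 CPM in Control and CPI-613.

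**Figure D4:**
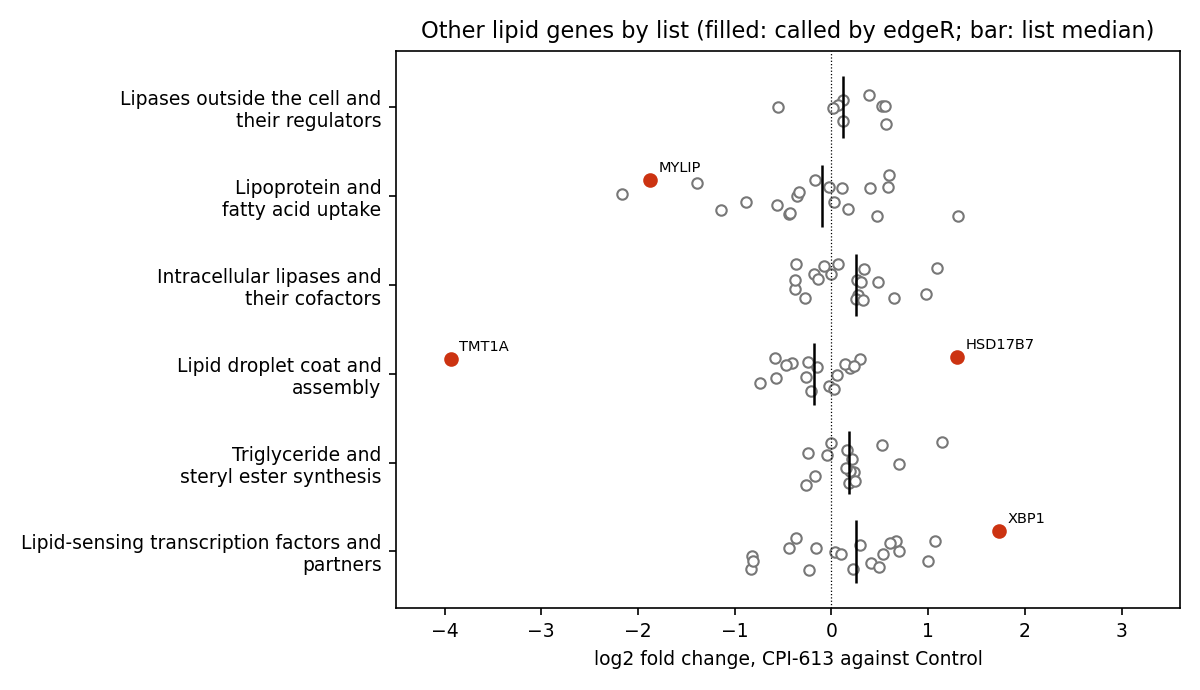
Log2 fold change of CPI-613 against Control for the tested genes of each of the 6 lists, without the 10 genes and the 2 uptake genes that rose, which are not drawn; filled points were called by edgeR, black bars are medians of all tested genes of a list and vertical scatter carries no meaning. The 4 called genes drawn are named, and the list medians lie between -0.18 and 0.26.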

How the data were processed

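RNA of 6 HN12 samples was sequenced after 24 h with DMSO or CPI-613, in 3 libraries each, made with a NEBNext Ultra II kit from TRIzol-extracted total RNA per the labels' protocols. The deposited table of estimated counts per RefSeq transcript was made by the authors. Which tool made that table, and with which annotation release and strand setting, is not stated in those labels. The submitters' processing notes name STAR 2.5, HTSeq, edgeR 3.16.5 and hg38. The second deposited table names no unit and was taken as FPKM made by the authors. Over 1441 single-transcript genes the value per read scaled with the inverse of the library total to within 0.588%. That check compares libraries within a gene, so it covers the scaling to depth and cannot show the scaling to length. Levels per length rest on the unit as taken.

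In 27 transcripts, none of the 10 genes', 1 library holds a date in place of a number, and these were left out. Counts were summed per gene and rounded; genes without a symbol (0.0163% of counts) were dropped. edgeR 4.0.16 was run with filterByExpr (minimum count 10, total 15), TMM scaling and the quasi-likelihood test with group as covariate, and Benjamini-Hochberg adjustment covered 12655 genes at 0.05. The SE is the log2 fold change over the square root of F. No library pair agreed within counting noise, and the number of libraries limits the precision. Chi-square per degree of freedom was 3.85 for Control replicates 1 and 3 and at least 34.37 for every other pair. Those 2 libraries were thus far more alike than any others. For 99.55% of genes, the longest protein-coding transcript in GENCODE 29 gave GC content and length, and the trend was fitted per library with natural splines. Alternatives were other scalings and filters, DESeq2 1.42.0, limma-voom (limma 3.58.1), the replicate number as a block, the trend removed, and leaving out each library. Other lipid genes named are direct partners and paralogs of the 10, up to 4 called genes per list by size of change, or the 2 most abundant where none was called. The 10 genes and all lists were chosen with earlier results of these data known. Coordinates are those of RefSeq for GRCh38.p14, the build hg38 names. The 2 uptake genes that rose are counted but not reported here by name.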

Additional observations from a re-analysis of the deposited data

How the results depend on the processing

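The log2 fold change of 9 of the 10 genes kept its sign in all 24 alternatives, with at least 2.19 for LIPG, 0.88 to 2.18 for VLDLR and -2.06 to -1.28 for HILPDA. PLIN2, with -0.13 to 0.75, changed sign in 3 of them that left out a library. The 401 genes called became 892 by DESeq2, 70 at an adjusted p of 0.01, 1492 with the GC and length trend removed, and 922 with the trend removed and the replicate block. The 4 other lipid genes called higher and 2 called lower became 9 and 6 by DESeq2, 2 and 1 at an adjusted p of 0.01, 12 and 8 with the trend removed, and 9 and 3 with the trend removed and the block. The replicate block alone gave 190 genes, and 3 and 1 other lipid genes, with LPIN1, FABP5, MYLIP and HSD17B7 no longer called. Deviations from the group means correlated between the groups at 0.432, -0.092 and -0.583 for replicates 1, 2 and 3. These deviations depend on each other within a group and still carry the GC trend. They therefore cannot settle whether the replicate numbers pair the samples. Leaving out 1 library gave 0 to 900 genes called, and 0 to 8 and 0 to 3 other lipid genes; with the trend removed as well, chosen after seeing the data, it gave 615, 1438 and 651 genes without Control replicates 1, 2 and 3 and 2637, 615 and 1427 without CPI-613 replicates 1, 2 and 3, with 8, 12, 7, 20, 7 and 12 other lipid genes higher and 2, 7, 3, 11, 3 and 7 lower. Why the counts differ was not tested. Counts limit PLIN2, G0S2, FABP4, CD36 and LIPC, and 3 libraries per group limit the rest.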

Other observations

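Transcription factors and partners known to respond to lipids, oxygen or stress were read as a further list. Of 20 tested, 1 rose and 0 fell by edgeR (5 and 1 at an unadjusted p below 0.05). Over all genes tested, edgeR called 1.94% higher and 1.23% lower. Over the list the median log2 fold change stood at 0.26; DESeq2 called 3 higher and 1 lower, and limma-voom 1 higher. XBP1, a factor of the unfolded protein response that also drives lipid synthesis genes, rose from 142 ± 16.8 to 472 ± 78.1 CPM (SD, n = 3; log2 fold change 1.73, SE 0.20; adjusted p by edgeR 0.0094, and between 1.54e-11 and 0.0903 in 22 alternatives). Every CPI-613 library lay above every Control library, as in 6 of the 20 genes, against 11.9% of all genes tested. The call was lost without Control replicate 1, Control replicate 3 or CPI-613 replicate 2.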
